A study of Mus musculus with 16 samples.

Results

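The genes described here are 7 genes of the heartbeat's pacemaker and wiring: the channel genes Hcn4 and Hcn2, the adhesion gene Cntn2, and the transcription factor genes Shox2, Tbx3, Etv1 and Irx3. They were chosen by name, and all 7 were found among the 16118 genes of the deposited table. Gene expression was measured by sequencing polyadenylated RNA of both heart chambers, atria and ventricles, in 8 adult male littermates, with 1 library per chamber and mouse, or 16 libraries in 4 groups of 4. All mice, controls included, were homozygous for floxed Meis1 and floxed Meis2 and were sampled 2 weeks after tamoxifen. The 4 idKO mice had the alpha-MHC-MerCreMer transgene (tg/wt) and the 4 controls were wt/wt for it. The alpha-MHC promoter is active in heart muscle cells, so deletion was directed to those cells and not to nerve, connective tissue or vessel cells. The controls had no Cre, so what the transgene itself or active Cre may do cannot be told apart from the loss of Meis1 and Meis2.

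The heartbeat starts in the sinus node, a small cluster of muscle cells in the atrial wall, and passes through the atrioventricular node, the His bundle and the Purkinje fibres to the working ventricle. HCN channels open when a cell is hyperpolarised and carry the inward pacemaker current, with HCN4 the main form of the nodes and HCN2 present more widely in working muscle. SHOX2 and TBX3 are transcription factors that keep nodal cells from becoming ordinary atrial muscle. ETV1 is an ETS factor required for fast conduction in atria and Purkinje fibres, IRX3 is a homeodomain factor required in the ventricular conduction system, and contactin 2 (CNTN2) is a cell surface adhesion protein that marks that system. MEIS1 and MEIS2, the targets of the deletion, are homeodomain factors that bind DNA at the letters TGACAG.

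To place the members beside the deleted factors, the 250 bases upstream of each RefSeq start site (GRCm38.p6) were searched on both strands for TGACAG and for AGGTGT, the core site of T-box factors such as TBX3. RefSeq windows were found for 6 of the 7 members. Among these, TGACAG occurred only in Cntn2 and AGGTGT only in Hcn4. Both genes are shown because they were the members that fell in idKO ventricles. The Cntn2 stretch is 30 bases around the match (chr1:132543025-132543054, minus strand, printed 5′ to 3′ along the gene). In GENCODE the match itself lies in a noncoding part of a transcript (132543029 to 132543131). The Hcn4 stretch is the whole window (chr9:58822699-58822948, plus strand). Capitals mark TGACAG in Cntn2 and, in Hcn4, ACACCT, which is AGGTGT read from the opposite strand.
Cntn2: ctggtccttaaaTGACAGcaaatgaggtaa
Hcn4: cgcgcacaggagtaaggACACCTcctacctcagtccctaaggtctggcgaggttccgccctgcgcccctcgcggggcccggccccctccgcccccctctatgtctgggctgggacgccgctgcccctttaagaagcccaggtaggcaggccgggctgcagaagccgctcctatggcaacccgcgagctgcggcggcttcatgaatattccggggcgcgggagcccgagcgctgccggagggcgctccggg
The match in Cntn2 begins 102 bases before the start site and that in Hcn4 begins 233 bases before it. Such short motifs are common: 15.9% of the 32851 windows of this length held TGACAG and 11.8% held AGGTGT on either strand. A match in these letters is not evidence of binding.

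The libraries held 13.1 to 21.8 M (mega) reads in genes. Values below are normalised read counts, that is reads per M effective reads as the authors scaled them. Differences between groups were tested with limma on log2(value + 1), a scale that understates the change of low genes, and genes with a Benjamini-Hochberg adjusted p under 0.05 over all genes tested were called. Dissection matched the labels: atrial muscle markers summed to a median of 44459 in control atria and 270.0 in control ventricles. In idKO mice the medians were 43051.5 and 1254. Of the 7 atrial markers tested between idKO and control ventricles, limma called 1, Nppa, which was higher in idKO (log2 difference 2.45). Meis2 fell in idKO ventricles (log2 difference -1.49 ± 0.12 SE, limma adjusted p = 2.0e-05), whereas Meis1 did not pass there (-0.24, adjusted p = 0.236) and neither passed in atria (Meis2 -0.16, Meis1 0.06, both with intervals that include 0). These are tissue samples, so fewer cells of a type and less RNA per cell cannot be told apart.

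**Figure D1:**
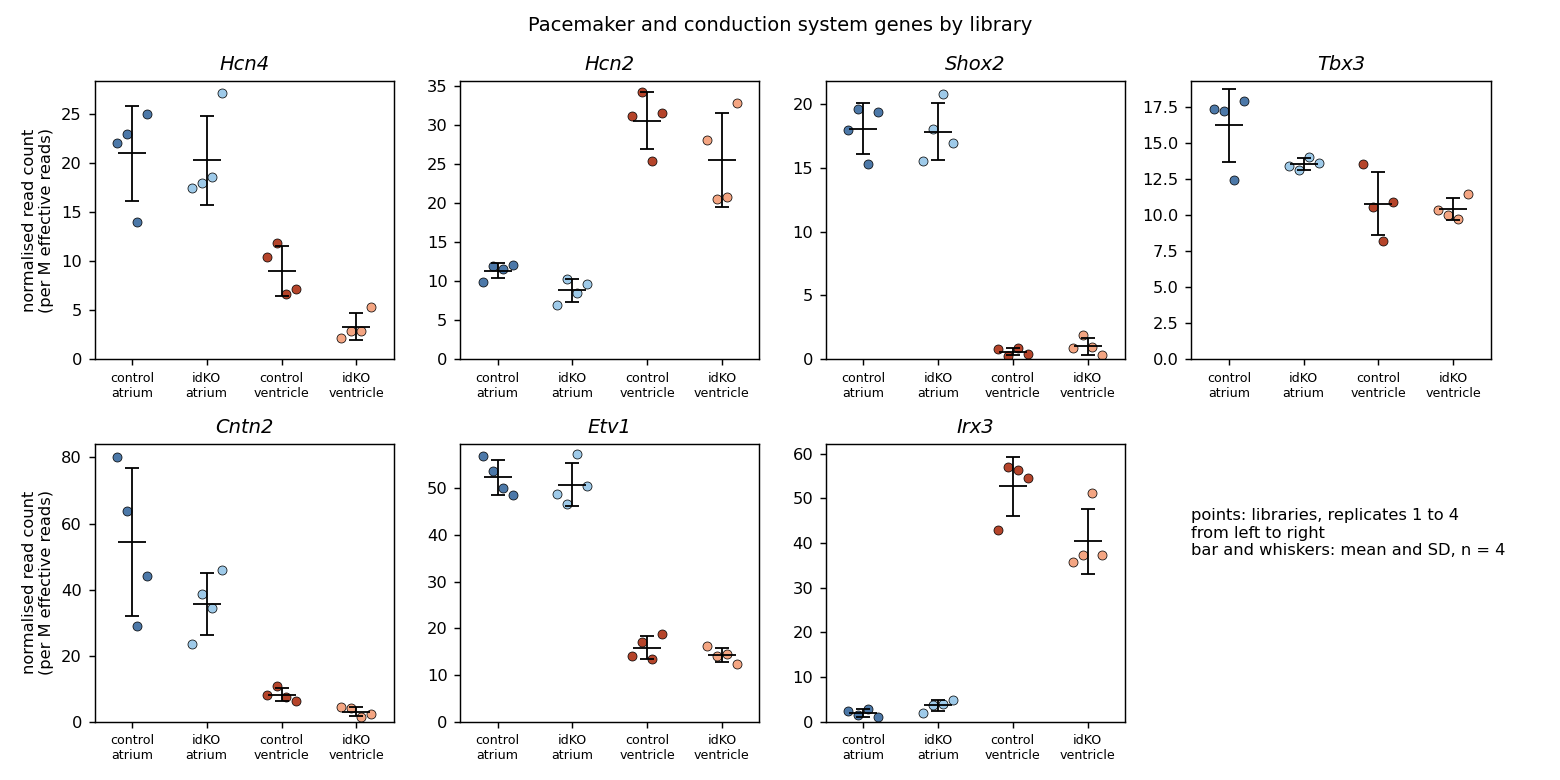
Normalised read count (reads per M effective reads) of each gene in each of the 16 libraries; points are libraries in replicate order, the horizontal bar and whiskers are the group mean and SD (n = 4). The 4 idKO ventricles sit below the 4 control ventricles for Hcn4 and Cntn2, and Shox2 and Irx3 lie almost wholly in one chamber each.

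The first comparison asked whether these genes differ between idKO and control ventricles. Hcn4 and Cntn2 both fell to less than 40% of the control level, and the other members tested did not pass. Limma called 2 of the 6 members tested, both lower, where 2.03% of the 13144 genes tested were called and 1.5% were called lower. Shox2 was too low in ventricles to enter the fit.

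Hcn4 (chromosome 9, 58823412 to 58863175, plus strand) encodes the main pacemaker channel of the nodes. In control ventricles replicates 1 to 4 it measured 10.4, 11.8, 6.59 and 7.10. In idKO ventricles it measured 2.16, 2.84, 2.84 and 5.29. The groups did not overlap, which held for 8.99% of all genes tested, and the highest idKO library stood just under the lowest control. The mean went from 8.98 ± 2.53 to 3.28 ± 1.37 (SD, n = 4), or 36.6% of control. The log2 difference was -1.23 ± 0.23 SE, with limma adjusted p = 0.013. The counts behind it were 449 reads over the 4 controls and 164 over the 4 idKO libraries.

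Cntn2 (chromosome 1, 132509427 to 132543256, minus strand) showed a drop of like size. Control ventricles read 8.05, 10.9, 7.60 and 6.39, and idKO ventricles read 4.44, 4.11, 1.32 and 2.42. Every idKO library was below every control here too. The mean went from 8.23 ± 1.91 to 3.07 ± 1.46 (SD, n = 4), or 37.3% of control, with a log2 difference of -1.24 ± 0.25 SE and limma adjusted p = 0.024. It rests on 408 control and 153 idKO reads.

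The Hcn4 call held in 17 of 19 alternative analyses (adjusted p from 5.4e-05 to 0.063) and the Cntn2 call in 14 of 19 (5.4e-04 to 0.088). Both missed the threshold without the filter on low genes (0.059 and 0.083) and with a prior that ignores expression level (0.063 and 0.088). Cntn2 also missed it without control replicate 1, 2 or 3 (adjusted p = 0.056, 0.077 and 0.056), with log2 differences of -1.24, -1.11 and -1.26. Counting the recovered reads with DESeq2 gave -1.45 for Hcn4 and -1.42 for Cntn2.

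The second pacemaker channel, Hcn2 (chromosome 10, 79716634 to 79736108, plus strand), behaved otherwise. Control ventricles read 31.2, 34.2, 25.4 and 31.5, and idKO ventricles read 28.0, 20.5, 20.7 and 32.8. The groups overlapped, since idKO replicates 1 and 4 lay among the controls while 2 and 3 lay below them. The log2 difference was -0.27 (95% interval -0.58 to 0.04, limma adjusted p = 0.412), so a fall as large as that of Hcn4 lies outside the interval.

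Levels of different genes can be compared only per length, so Hcn2 and Hcn4 were also read per kb of exon. In control ventricles Hcn4 made up 13.1% ± 2.29 (SD, n = 4) of the summed level of Hcn2 and Hcn4. The Hcn4 share in the controls was 14.9%, 15.3%, 11.9% and 10.5%, and in the idKO libraries 3.87%, 6.73%, 6.68% and 7.77%. It was lower in each idKO ventricle than in each control, with a mean of 6.26% ± 1.67. These shares follow from the same reads as the Hcn4 difference and were not tested apart from it.

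**Figure D2:**
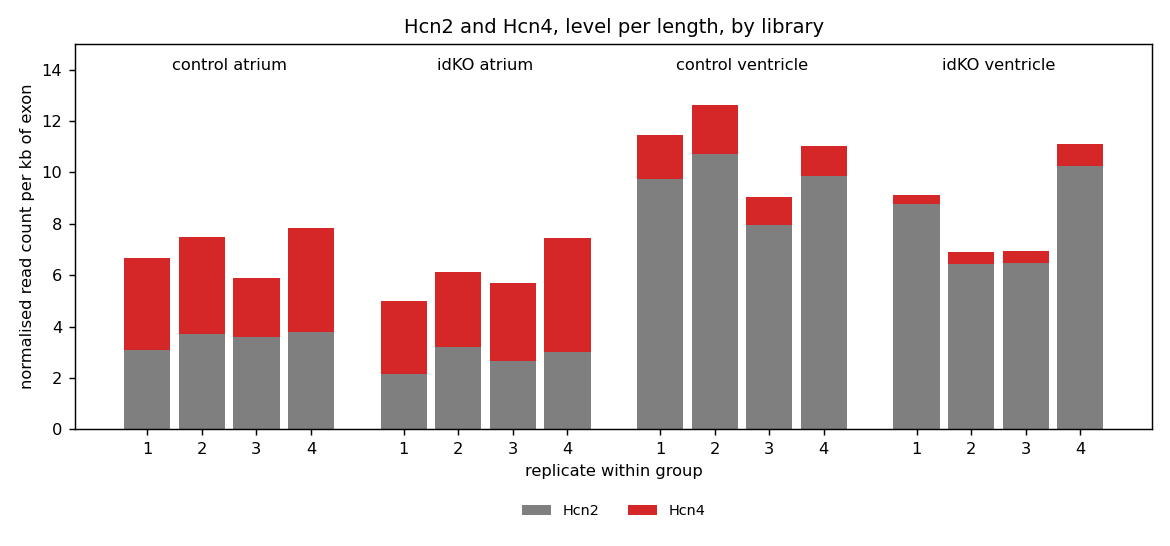
Normalised read count per kb of exon for Hcn2 and Hcn4, stacked, in each library by group and replicate. Hcn2 (grey) fills most of every ventricle bar, and the Hcn4 part (red) is 10.5% to 15.3% of the bar in control ventricles and 3.87% to 7.77% in idKO ventricles.

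Among the transcription factors in ventricles, none passed. Irx3 (chromosome 8, 91798525 to 91802067, minus strand) came nearest. Control ventricles read 43.0, 57.1, 56.4 and 54.5, and idKO ventricles read 35.7, 37.2, 51.2 and 37.3. Of the idKO libraries, 3 lay below all controls and replicate 3 lay above the lowest control. The log2 difference was -0.38 (95% interval -0.64 to -0.12, limma adjusted p = 0.138). Without idKO replicate 3 it was -0.50 and was called (adjusted p = 0.033).

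Etv1 (chromosome 12, 38779380 to 38870484, plus strand) ranged from 13.5 to 18.7 in control and from 12.4 to 16.1 in idKO ventricles, with a log2 difference of -0.14 (95% interval -0.41 to 0.13). Tbx3 (chromosome 5, 119670669 to 119684724, plus strand) ranged from 8.20 to 13.5 and from 9.73 to 11.5, with -0.03 (95% interval -0.34 to 0.27). Both intervals exclude a fall of the size seen for Hcn4 and Cntn2. Shox2 (chromosome 3, 66971727 to 66981771, minus strand) stood at 0.571 ± 0.289 in control and 1.0 ± 0.673 in idKO ventricles (SD, n = 4). An exact permutation test over the 70 assignments of 4 against 4 gave p = 0.257, two-sided, where the smallest possible is 0.029. No difference was detected, with 25 and 48 reads over 4 libraries each.

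The surrounding gene lists put Hcn4 and Cntn2 in context. Of 18 tested genes of the fast ventricular conduction system, limma called 3, all lower, among them Cntn2 and Scn10a, a voltage-gated sodium channel gene. In the same list edgeR called 3, DESeq2 called 5, and 8 had an unadjusted limma p under 0.05. Over all 13144 genes tested in ventricles, 1967 had such a p, which is the background for the other ventricle lists below too. Positive differences, none called by limma, were seen for 6 of the 18. Scn10a went from 3.63 ± 0.603 to 1.09 ± 0.206 normalised reads (log2 difference -1.15 ± 0.19 SE, adjusted p = 0.007). The median log2 difference of this list was -0.15, beside -0.01 over all genes tested. Gja5, which encodes the connexin of Purkinje fibres and atria, was at 0.37 and did not pass (adjusted p = 0.404).

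Of 18 tested genes of the sinus and atrioventricular nodes, limma called 1, Hcn4 (1 by edgeR, 2 by DESeq2, 6 at an unadjusted p under 0.05), and the list's median was 0.04. Neither the HCN-binding or HCN-modulating proteins (0 of 6 by limma and by edgeR, 1 by DESeq2, 2 at an unadjusted p under 0.05) nor the NRG1-ERBB-ETV1 pathway that maintains Etv1 (0 of 10 by limma and by edgeR, 1 by DESeq2, 2 at an unadjusted p under 0.05) held a limma call. In the latter, Etv5, an ETS factor close to Etv1, was at 0.64 with adjusted p = 0.053. Among 15 genes of the BMP and T-box pathway, 1 was called higher, the T-box factor gene Tbx20 (109 ± 8.91 to 147 ± 13.6, 0.42, adjusted p = 0.014), where 0.533% of all genes were called higher.

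The family of Irx3 leaned one way. All 5 Iroquois genes tested had negative log2 differences in ventricles, with a median of -0.38, and all 5 were negative under each scaling tried and by both count tests. Of them 1 was called: Irx4, a ventricular muscle factor, at -0.63 ± 0.11 SE (adjusted p = 0.010). It went from 38.7 ± 2.87 to 24.9 ± 4.33. Of 6 working muscle genes that TBX3 is known to repress in the node, 2 were called higher, Nppa and Nppb (log2 differences 2.45 and 1.19), and 2 lower, among them the connexin gene Gja1 (-1.11), with Tbx3 itself at -0.03. Among 4 tested genes of the contactin family and its partners, limma called 1, Cntn2 (1 by edgeR, 2 by DESeq2), and Cntn5 was at -0.81 with adjusted p = 0.053.

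Markers of the muscle itself and of other cells were read in the same ventricles. Of 8 ventricular muscle markers 4 were called lower, Fhl2 (-1.48), Mpped2 (-0.74), Irx4 (-0.63) and Lbh (-0.57), with a list median of -0.40. Positive differences, none of them called, were seen for 3 of the 8: Myh7 (1.25), Hey2 (0.27) and Myl3 (0.04). The 8 summed to 18566 to 20859 in control and 16058 to 19384 in idKO ventricles. Fibroblast markers had 0 of 8 called by limma, DESeq2 or edgeR (2 at an unadjusted p under 0.05), 7 positive differences and a median of 0.27, and summed to 1015 to 1231 and 1086 to 1828. Neuron markers had none of 3 tested genes called by limma, DESeq2 or edgeR. At an unadjusted limma p under 0.05 there were 2, Dbh lower and Uchl1 higher. The 9 listed summed to 19.5 to 25.0 in control and 19.8 to 32.8 in idKO ventricles. Of them, Th, which encodes the enzyme that starts catecholamine synthesis, had no read in any ventricle. Schwann cell markers summed to 59.5 to 68.0 and 61.2 to 96.0, with 0 of 4 called by limma, DESeq2 or edgeR (1 at an unadjusted p under 0.05). Of 4 mesothelial markers tested, those of the heart's outer lining, limma called 1 lower (Msln, -1.14, adjusted p = 0.011), and the 7 listed summed to 27.7 to 37.5 in control and 10.6 to 29.6 in idKO ventricles. None of the 7 was at 0 in either group. The part of these muscle and other cell markers in the Hcn4 and Cntn2 differences was not tested.

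**Figure D3:**
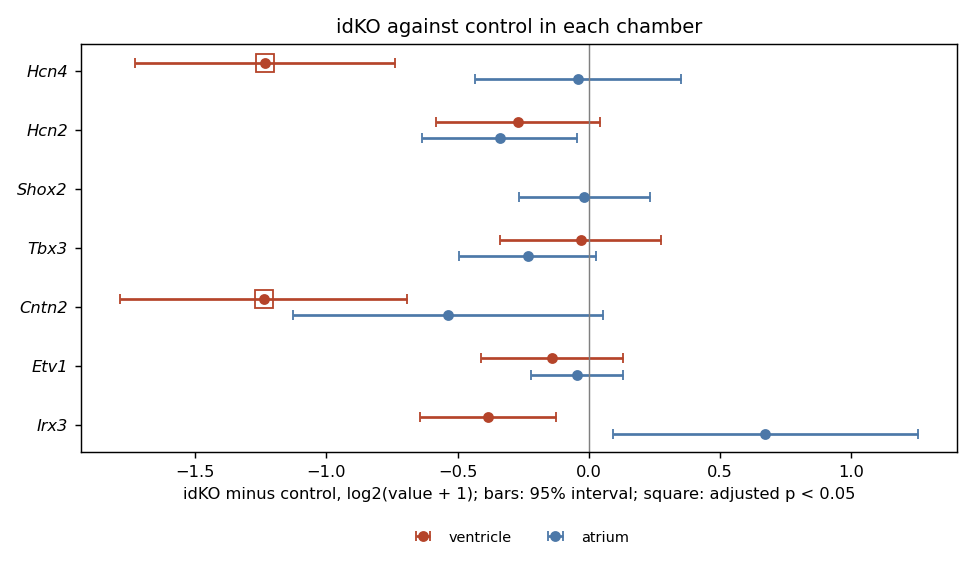
Difference between idKO and control in log2(value + 1) for each gene, in ventricles (red) and atria (blue), with 95% intervals; squares mark limma adjusted p under 0.05. Squares appear only at Hcn4 (-1.23) and Cntn2 (-1.24) in ventricles, and Shox2 has no ventricle point because it was below the filter.

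The same comparison in atria gave no call. Limma called 0 of the 7 members in atria, as did DESeq2 and edgeR, and 2 (Hcn2 and Irx3) had an unadjusted p under 0.05. Over all 14523 genes tested in atria, 670 had an unadjusted limma p under 0.05. No member had groups that did not overlap, which 2.82% of genes had. Calls were rare there in general, at 0.0207% of the 14523 genes tested. Hcn4 read 22.0, 23.0, 13.9 and 24.9 in control atria and 17.4, 17.9, 18.5 and 27.1 in idKO atria. The groups overlapped, and the lowest of the 8 was a control and the highest an idKO library. Its log2 difference was -0.04 (95% interval -0.43 to 0.35), an interval that excludes a fall as large as that in ventricles.

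Cntn2 in atria was the most scattered of the higher genes. Control atria read 80.2, 63.8, 29.0 and 44.1, and idKO atria read 23.5, 38.6, 34.5 and 45.9. The groups overlapped, because controls 3 and 4 lay within the idKO range. The log2 difference was -0.53 (95% interval -1.13 to 0.06, limma adjusted p = 0.966).

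Hcn2 read 9.86, 11.9, 11.5 and 12.1 in control atria and 6.91, 10.2, 8.49 and 9.64 in idKO atria. Only idKO replicate 2 lay above the lowest control. The log2 difference was -0.34 (95% interval -0.63 to -0.04), but across all genes it did not pass (adjusted p = 0.966).

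Irx3 was the single member with a positive difference in atria. Control atria read 2.44, 1.40, 2.86 and 1.0, and idKO atria read 1.91, 3.77, 4.07 and 4.83. The log2 difference was 0.67 (95% interval 0.09 to 1.25, limma adjusted p = 0.966) at a low level, 111 and 243 reads over 4 libraries each. In the same order of replicates the 8 ventricular muscle markers summed to 599, 2036, 548 and 625 in control and to 720, 557, 1971 and 2009 in idKO atria. The idKO atrium with the most Irx3, replicate 4, also had the highest marker sum of its group. The control with the highest sum, replicate 2, had the second lowest Irx3 of its group. Single markers did not follow the sum alike. That idKO atrium, replicate 4, had the lowest Myl2 (3.54) and Myl3 (79.5) of its group, but the highest Fhl2 (403). Most of the sum in that atrium came from other markers of the list. Myh7, the only marker of the 8 not called between control chambers, is among them (atrium minus ventricle -2.42 ± 1.11 SE, limma adjusted p = 0.072). The sum therefore need not measure ventricular muscle RNA alone. The part of ventricular muscle RNA in atrial Irx3 was not tested.

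None of the other members passed the test in atria. Etv1 ranged from 48.6 to 57.0 in control and from 46.6 to 57.3 in idKO atria (-0.04, 95% interval -0.22 to 0.13). Shox2 ranged from 15.3 to 19.6 and from 15.6 to 20.8 (-0.02, 95% interval -0.27 to 0.23). Tbx3 ranged from 12.5 to 17.9 and from 13.1 to 14.1 (-0.23, 95% interval -0.50 to 0.03), with 3 of 4 controls above each idKO atrium. Of 24 nodal genes tested in atria, 0 were called by limma, DESeq2 or edgeR, with 2 at an unadjusted p under 0.05, and of 18 conduction genes 0 were called by these tools, with 3 at an unadjusted p under 0.05.

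Whether the genotype effect differed between chambers was tested as an interaction, the difference in atria minus that in ventricles, over all 16 libraries. Limma called no member, where 0.296% of 14871 genes were called (0.269% positive and 0.0269% negative). An unadjusted limma p under 0.05 was found for 2 members (Hcn4 and Irx3) and for 972 of the 14871 genes. For Hcn4 the interaction was 1.19 ± 0.32 SE (unadjusted p = 0.0013, adjusted p = 0.218). Since atrium and ventricle came from the same mouse, a fit with the mouse as a fixed block applies too, and it called Hcn4 (limma adjusted p = 0.0057), as did DESeq2 without a block (0.0138); edgeR called 0 members. For Irx3, with opposite signs in the chambers, it was 1.06 ± 0.30 SE (adjusted p = 0.304), and DESeq2 called it (0.0052). For Cntn2 it was 0.70 ± 0.41 SE (95% interval -0.16 to 1.56), so a difference between chambers was not shown. The other members were at -0.07 (Hcn2), 0.10 (Etv1), -0.20 (Tbx3) and -0.33 (Shox2), all with intervals that include 0. Of the conduction and Iroquois lists, Scn10a was called (1.15, limma adjusted p = 0.014), as was Irx4 (0.99, adjusted p = 0.043).

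The chambers themselves differed in all 7 genes. In control mice, 5 were higher in atria and 2 in ventricles, and all 7 were called in limma and in each of 20 alternatives. That is set against a wide background: 56.9% of the 14871 genes were called, 28.2% higher in atria and 28.7% lower, and 50.7% had groups that did not overlap.

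Shox2 was the most atrial member. Control atria read 18.0, 19.6, 15.3 and 19.4 against 0.776, 0.262, 0.855 and 0.389 in control ventricles, a 31.7-fold ratio of means. On the log2(value + 1) scale the difference was 3.61 ± 0.20 SE (limma adjusted p = 2.6e-11), which DESeq2 put at 5.17. Shox2 in control ventricles stood at 3.16% of the control atrial mean, within the range of the 8 atrial muscle markers there (0.0207% to 16.5%, median 0.370%), of which 2 stood higher and 6 lower.

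Cntn2 was 6.59-fold higher in control atria (54.3 ± 22.4 against 8.23 ± 1.91, SD, n = 4; log2 difference 2.51 ± 0.29 SE). Etv1 was 3.30-fold higher (52.4 ± 3.77 against 15.9 ± 2.44; 1.67 ± 0.10 SE). Hcn4 was 2.34-fold higher (21.0 ± 4.84 against 8.98 ± 2.53; 1.14 ± 0.22 SE). In all 3 genes the lowest atrium lay above the highest ventricle.

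At the authors' scaling Tbx3 differed least, at 16.2 ± 2.54 in control atria and 10.8 ± 2.18 in control ventricles, or 1.50-fold (log2 difference 0.55 ± 0.13 SE, limma adjusted p = 0.0015). Scaled to library reads, its log2 difference was 1.06 and Hcn2 differed least, at -0.80. At the authors' scaling Tbx3 was the only member whose control chambers overlapped, since atrium replicate 3 at 12.5 lay below ventricle replicate 1 at 13.5.

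Irx3 and Hcn2 ran the opposite way. Irx3 was 27.4-fold higher in control ventricles (52.7 ± 6.58 against 1.92 ± 0.867; log2 difference -4.24 ± 0.21 SE). Irx3 in control atria stood at 3.65% of the ventricular mean, within the range of the 8 ventricular muscle markers there (0.166% to 52.4%, median 5.39%), of which 4 stood higher and 4 lower. Hcn2 was 2.69-fold higher in control ventricles (30.6 ± 3.70 against 11.3 ± 1.01; -1.35 ± 0.15 SE). All 5 Iroquois genes tested were called lower in atria. Of 24 nodal genes 20 were called higher in atria and 3 lower, and of 19 conduction genes 10 and 5.

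Per kb of exon, the balance of Hcn2 and Hcn4 also differed between the chambers. In control atria Hcn4 made up 48.6% ± 6.81 (SD, n = 4) of their summed level, with a range of 38.7% to 53.8%, above the share in each control ventricle. In idKO atria it made up 54.3% ± 5.08, from 47.7% to 59.5%, which overlapped the control atria. The summed level of both genes ranged from 5.89 to 7.85 per kb in control atria and from 9.03 to 12.6 in control ventricles. Markers of other cells differed between the chambers as well. All 9 neuron, all 7 mesothelial, all 8 fibroblast and all 6 adipocyte markers tested, and 6 of 8 Schwann cell markers, were called higher in control atria. Endothelial and endocardial markers went both ways, with 5 of 8 called higher and 2 lower. Adipocyte markers summed to 40.3 to 267 in control atria and 0.980 to 1.81 in control ventricles. Neuron markers summed to 80.2 to 123 in control atria and 19.5 to 25.0 in control ventricles, and the part of these cells in the chamber differences was not tested.

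**Figure D4:**
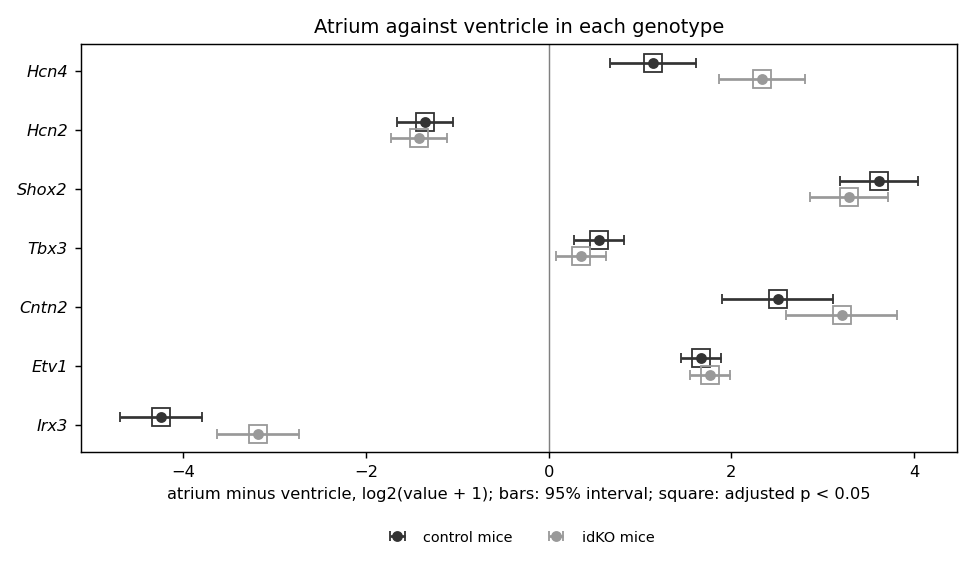
Difference between atrium and ventricle in log2(value + 1) for each gene, in control mice (black) and idKO mice (grey), with 95% intervals; squares mark limma adjusted p under 0.05. All points carry squares; Hcn4 is at 1.14 in control and 2.34 in idKO mice, and Irx3 at -4.24 and -3.18.

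In idKO mice the same 7 genes were called with the same directions, where 53.8% of genes were called (26.8% higher in atria and 27.1% lower) and 47.2% had groups that did not overlap. All 7 members, Tbx3 included, had no overlap there. Hcn4 was 6.17-fold higher in idKO atria than in idKO ventricles (log2 difference 2.34 ± 0.22 SE) and Cntn2 11.6-fold higher (3.21 ± 0.29 SE). Hcn2 stayed on the ventricular side at -1.42 ± 0.15 SE. Tbx3 was at 0.35 ± 0.13 SE (limma adjusted p = 0.031), a call that was lost without idKO replicate 1, 2 or 3 (adjusted p = 0.079, 0.079 and 0.129).

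The order of the groups follows from these values. For Hcn4 the 2 atrial groups did not differ beyond their spread, then came control ventricles, then idKO ventricles, and neither of the last 2 overlapped any other group. Cntn2 had the same order. For Etv1 and Shox2 the 2 atrial groups lay together above the 2 ventricular groups, which also overlapped each other. For Irx3 and Hcn2 the ventricular groups lay together above the atrial ones. For Tbx3, control ventricles overlapped each of the other groups, and idKO ventricles lay below both atrial groups.

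Across the 8 atria, some members varied far more than others. The highest library was 4.82 times the lowest for Irx3, 3.41 times for Cntn2, 1.94 times for Hcn4, 1.75 times for Hcn2, 1.44 times for Tbx3, 1.36 times for Shox2 and 1.23 times for Etv1. Control atrium 3 had the lowest Hcn4, Tbx3 and Shox2 of the 8 and the second lowest Cntn2. It stood at 67.7% of the 8-library mean for Hcn4 and 83.7% for Tbx3, but at 114% for Hcn2 and 97.2% for Etv1.

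**Figure D5:**
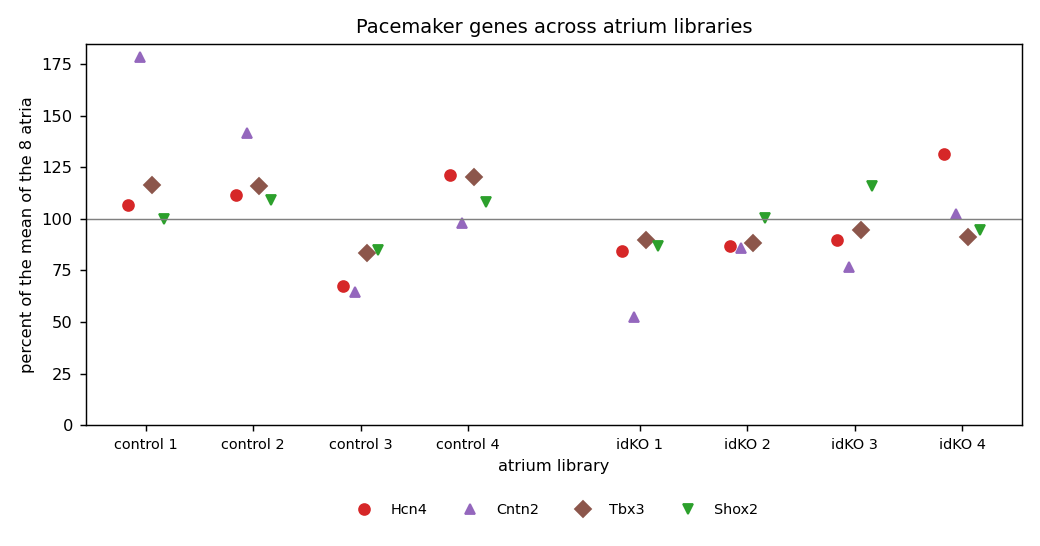
Level of 4 genes in each atrium library as a percent of that gene's mean over the 8 atria (line at 100). Control 3 lies below the line for all 4 genes, from 64.6% (Cntn2) to 85.1% (Shox2), and control 1 is highest for Cntn2 at 178%.

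Relations between genes over the 8 atria were computed for the 21 pairs of the 7 members. The pair with the largest Pearson's r was Cntn2 with Tbx3, with r = 0.76 (exact permutation p = 0.0324, adjusted p = 0.478) and Spearman's rho = 0.67 (exact permutation p = 0.0831, adjusted p = 0.582). Without the 2 libraries farthest from the median of Cntn2, r was 0.73. No pair passed after adjustment. These values pool both genotypes. For Cntn2 with Tbx3, r was 0.78 in control atria and 0.07 in idKO atria. The 4 libraries of a genotype are too few to test the relation within it.

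Each member's pattern over the 16 libraries was compared with that of all 14871 genes tested there, by the root-mean-square difference in log2(value + 1) after centring each gene on its own mean. Group means were not removed, so genes near a member share its chamber and genotype differences in part by selection. Such differences in a near gene are no separate evidence. Genes with predicted or clone names were passed over when the nearest were named. Nearest to Hcn4 were Nudt4 (0.34), Dbh (0.36) and Epb41l3 (0.38), against a standard deviation of 1.06 for Hcn4 itself. Dbh encodes the enzyme that makes noradrenaline and is on the neuron list. It went from 3.21 ± 0.386 in control to 1.59 ± 0.690 in idKO ventricles (SD, n = 4). The log2 difference was -0.74 and did not pass (limma adjusted p = 0.135). The other neuron markers tested in ventricles, Uchl1 and Stmn2, had positive differences (0.50 and 0.11) and did not pass either. Nearest to Cntn2 were Nkain4 (0.50), Pkhd1l1 (0.52) and Slc2a10 (0.52), against 1.62 for Cntn2 itself.

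Nearest to Etv1, whose standard deviation was 0.90, were Abcc8 (0.16), Ralgps2 (0.16) and Zfp521 (0.16). Nearest to Tbx3 were Ank3, Trim28 and Csgalnact2 (each 0.14), against 0.30 for Tbx3 itself. Shox2 was nearest to Peg3, Prph and Mrvi1 (each 0.28), against 1.81 for Shox2 itself, and Prph is a neuron marker.

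The ventricular members had their own neighbours. Irx3 was nearest to Mpped2 (0.37), Slc25a34 (0.38) and Smyd2 (0.39). Hcn2 was nearest to the mitochondrial genes mt-Co1 (0.18), mt-Nd1 (0.18) and mt-Nd6 (0.19).

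Reads of 60 bases can place most of these genes without doubt. No window of 60 bases in Hcn2 or Hcn4 transcripts was shared with another gene, and 0.68% of windows were shared for Cntn2. Etv1 shared the most, 8.56%. Tbx3, Irx3 and Shox2 overlap a gene on the opposite strand by 115, 124 and 153 exon bases, and reads there cannot be assigned to one strand where counting by strand is not stated. The gene opposite Shox2 codes for a protein and had a mean of 23.9 over all libraries, above the level of Shox2 in ventricles. The gene opposite Irx3 had a mean of 0.525. The part of such reads in the low ventricular Shox2 count, and so in its chamber ratio, was not tested.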

How the data were processed

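Per the submitters' processing notes, the authors used RSEM 1.3.1 and cutadapt (genome: GRCm38), and the scaling tool is not given in the sources used here. Input was 20 ng of RNA, read as single 60-base reads, per the labels. The deposited table holds a normalised signal: 0.5 was added to a whole read number and the sum scaled by an effective library size, and all values came out whole within 0.01. Effective size over recovered reads was 0.929 to 0.986 in control atria and 0.933 to 0.974 in idKO atria. In ventricles it was 0.622 to 0.650 in control and 0.649 to 0.727 in idKO mice, so the scaling differed between the genotypes there. Because the values are scaled and not raw counts, limma 3.58.1 (R 4.3.3) was run on log2(value + 1), with a trended prior, two-sided, on genes with at least 4 libraries at 1 CPM of the summed values. Each chamber was fitted on its 8 libraries, and the other contrasts on all 16. DESeq2 1.42.0 and edgeR 4.0.16 were run on the recovered reads as alternatives. Other alternatives changed the pseudocount, filter, scaling, prior, weights and block, or left out each replicate. The fits were also run on simulated reads, with the same relative spread for every gene and no effect of mouse. That run does not show how the fits behave at the spread of these genes. Positions are from GENCODE vM21 and sequences from RefSeq.

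The members and lists were chosen with earlier results of these data known. Genes were named by a rule: all members, Meis1, Meis2, called list genes (up to 4 per list), and the 3 nearest genes to each member, predicted and clone names passed over. Gja5, Etv5, Cntn5, Dbh, Uchl1, Stmn2, Myh7, Hey2, Myl2 and Myl3 were added after their values were seen. Some list genes that the rule would name are not reported here, but stay in the counts. Mouse numbers pair the chambers of an animal: the deviations of a mouse's 2 libraries correlated at 0.177 to 0.302 over 11802 genes, and 8 of 8 mice correlated best with themselves. The mice are separate animals, and replicates differed beyond sampling noise (chi-square per gene 8.08 to 16.8).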

Additional observations from a re-analysis of the deposited data

Results flagged for a closer look

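In 3 of the 28 gene and group combinations checked, 1 of the 4 libraries stood apart by Dixon's ratio, the gap to the nearest library divided by the whole range, which was above its 95% critical value. Chance gives about 1 in 20. In idKO atria, replicate 4 was highest for Hcn4 at 27.1, with a ratio of 0.886. In control atria, replicate 3 was lowest for Tbx3 at 12.5, with a ratio of 0.877. In idKO ventricles, replicate 3 was highest for Irx3 at 51.2, with a ratio of 0.896, and without it Irx3 was called lower in idKO ventricles.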

How the results depend on the processing

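In ventricles, 2 members were called; the count was 0 without the filter and 0 with the prior without trend, and 1 to 3 with each replicate left out. In idKO mice, 6 to 7 members were called between chambers with each replicate left out. For the interaction, 0 members were called, against 2 by DESeq2 and 1 with the mouse as a fixed replicate block (0 with a random block); the block changed no other member call. Signs turned only for differences near 0: Tbx3 in ventricles was 0.0593 scaled to library reads, and Shox2 in atria 0.0120 with array weights. With each replicate left out, the log2 differences ran from -0.145 to 0.0745 for Tbx3 in ventricles, from -0.215 to 0.0507 for Hcn4 and -0.0921 to 0.0414 for Shox2 in atria, and from -0.229 to 0.0842 for Hcn2 and -0.0162 to 0.184 for Etv1 in the interaction. The causes were not tested.

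Over all genes, ventricles had 267 calls (70 higher, 197 lower) against 537 by DESeq2 (195 and 342), 148 without the filter, 89 with the prior without trend, 261 scaled to library reads (153 and 108), and 132 to 359 with a replicate left out. Atria had 3, against 11 by DESeq2 and 2 to 4 with a replicate left out. The interaction had 44 (40 positive, 4 negative), against 86 by DESeq2 (64 and 22), 24 with the prior without trend, 22 scaled to library reads (17 and 5), 102 with a fixed and 71 with a random replicate block, and 19 to 39 with a replicate left out. Scaling to library reads, chosen after seeing the data, raised the median atrium minus ventricle difference of all genes by 0.49 in control and 0.42 in idKO mice and changed the control split from 4201 higher and 4267 lower to 9876 and 1390; in control mice the members' directions held, with Hcn2 at -0.80 and Tbx3 at 1.06. Ventricular Shox2 rests on 25 and 48 reads over 4 libraries and atrial Irx3 on 111 and 243, and counting error and the spread between mice were not told apart.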
